A study of Ovis aries with 18 samples.

Results

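The genes described here had a transcript level in the pars tuberalis (PT) that set sheep on 16 weeks of short photoperiod apart. In those sheep, values lay outside the range of all other sheep that entered the comparison. The comparison left out 1 sheep on long photoperiod for 4 weeks. In that sheep, 57 of the 67 genes higher after 16 weeks and 36 of the 46 lower ones lay further out still. The PT is the part of the pituitary that wraps the stalk below the hypothalamus. RNA was sequenced from the PT of neutered male Scottish Blackface sheep on short photoperiod (SP, short days) for 4 weeks (SP4) or 16 weeks (SP16), or on long photoperiod (LP, long days) for 4 weeks (LP4) or 22 weeks (LP22). Each group held 4 animals, and photoperiod and its duration were the only labelled differences between them. Castration was shared by all groups. The long exposures differed in length between the photoperiods, so the late groups are not matched in duration.

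The PT is known for its dense melatonin receptors. Melatonin is secreted at night, so a longer night gives a longer signal, and PT thyrotroph cells read this signal and release thyrotrophin on long days. Thyrotrophin acts on neighbouring tanycytes of the hypothalamus and changes local thyroid hormone there, which in turn governs seasonal physiology. Sheep held for long on an unchanging photoperiod can drift out of the state that photoperiod first brought about, and the study sampled each photoperiod early and late.

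Members were selected by their measured levels. Levels are read counts scaled to library size (CPM) after TMM scaling, which adjusts each library for its composition. The rule was applied to 15 animals, with the first and repeat libraries of SP4 sample 1 summed, LP4 sample 2 taken from its repeat library, and LP4 sample 3 left out. Of 25197 gene IDs, 11998 had a mean of at least 5 CPM. Among these, the 4 SP16 values lay above those of all 11 other animals for 72 genes (0.6% of those examined) and below them for 55 genes (0.458%). Genes in which every LP animal lay on one side of every SP animal were left out, 4 from the higher and 9 from the lower set, as was 1 gene that the rule excludes by ID. The remaining 113 genes, 67 higher and 46 lower in SP16, are the members. Because the rule used the SP16 values, every difference between SP16 and another group is given as a description.

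The deposited counts carry Ensembl sheep gene IDs without names, and 0 of these IDs matched the reference gene table, so 4 members are given by ID and the others by count and range. For the same reason the tissue was not checked here against marker genes. In whole tissue, fewer cells of a type and less RNA per cell cannot be told apart. The 15 animals had 1746861 to 5850281 counts over genes. The SP16 animals did not stand apart in depth (1936181 to 2690509 counts), in the share of reads that fell in no counted feature (81.5% to 83.0%, against 78.6% to 84.5% in the others) or in the share of counts held by the 10 leading genes (39.2% to 43.3%, against 37.6% to 59.2%). The share in no counted feature is of reads in a gene, in no feature or ambiguous between genes.

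Both libraries that the rule left out stood apart from the rest. The median correlation across genes with the other libraries was 0.550 for LP4 sample 3 and 0.776 for the first library of LP4 sample 2, against 0.930 to 0.955 for the other libraries. In LP4 sample 3, the share of reads in no counted feature was 47.2% and the 10 leading genes held 65.2% of gene counts. These libraries bear directly on the members.

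In the left-out library of LP4 sample 3, most members lay beyond the SP16 range in the direction that chose them. Of the 67 genes higher in SP16, 57 were higher still in LP4 sample 3 than in any SP16 animal and 1 lay within the SP16 range. The other 9 lay below that range. This is called the side of the other animals, whether or not the value was within their range. Of the 11998 genes that reached 5 CPM on average, 40.8% were above all SP16 animals in that library. Of the 46 genes lower in SP16, 36 were lower still in LP4 sample 3, 2 lay within the SP16 range and 8 lay on the side of the others, where 50% of all genes were below every SP16 animal. The rule had not used this library.

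The first library of LP4 sample 2 showed the same in a smaller share of members. There, 33 of the 67 higher members lay above all SP16 animals (33% of all genes did) and 30 of the 46 lower members lay below them (45.3% of all genes did). All 33 and all 30 of these were also further out in LP4 sample 3. The 9 higher and 8 lower members on the side of the other animals in LP4 sample 3 were on that side in this library too.

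The size of the displacement in LP4 sample 3 was larger than that in SP16. On the log2(CPM + 1) scale, the median higher member stood 1.72 above the mean of the 11 other animals in LP4 sample 3, and in the 4 SP16 animals this median ran from 0.47 to 0.53. The median lower member stood 2.05 below that mean in LP4 sample 3 (a difference of −2.05), and between −0.49 and −0.38 in the SP16 animals. Over all genes the median difference of LP4 sample 3 was −0.32. The left-out libraries were scaled in 1 table with the 15 animals for all these values except those of the SP16 animals.

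**Figure D1:**
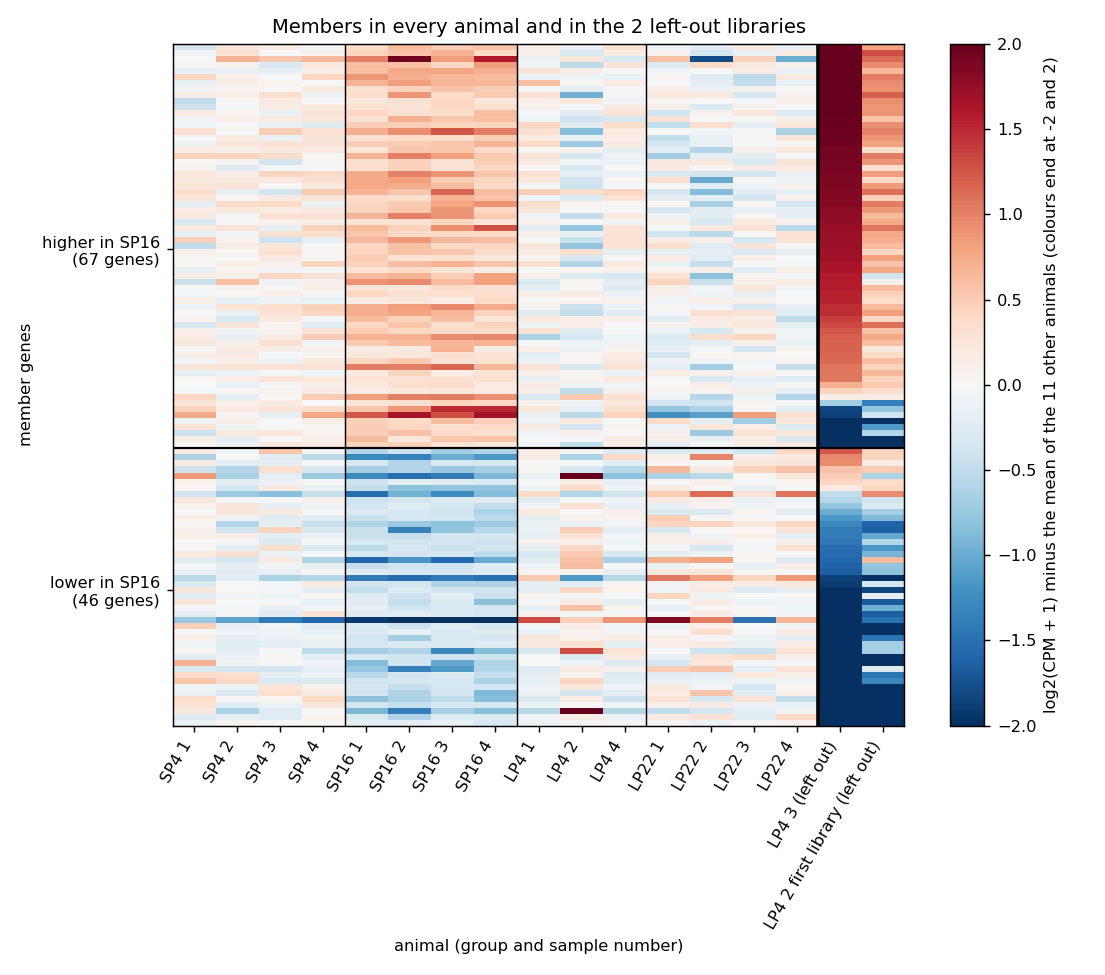
Each row is a member gene and each column an animal, with both left-out libraries at the right; colour is the log2(CPM + 1) difference from the mean of the 11 animals outside SP16, and rows are ordered within each direction by their value in LP4 sample 3. The 4 SP16 columns are uniformly shifted, and the column of LP4 sample 3 is shifted further the same way for 57 of 67 higher and 36 of 46 lower genes.

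Genes picked by the same rule for the other groups of 4 animals did not show this. Outside all other animals used by the rule stood 72 genes in SP4 (42 higher, 30 lower) and 90 in LP22 (49 higher, 41 lower), against 113 in SP16. Of the SP4 genes, 10 of 42 higher and 11 of 30 lower were further out in LP4 sample 3 than in any SP4 animal. Of the LP22 genes, these numbers were 9 of 49 and 10 of 41. All of these shares, from 18.4% to 36.7%, lay below the shares of all genes, whereas those of the SP16 genes, 85.1% and 78.3%, lay above. The difference between the sets was not tested, since genes of a library are not replicates.

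With all 16 animals in place, and both libraries of LP4 sample 2 summed, 25 genes met the rule for SP16, 9 higher and 16 lower. Of the members, 7 higher and 8 lower were among them. The same change left 70 genes for SP4 and 125 for LP22, and LP4 had 97. These counts came from 12028 genes left after the exclusions, against 11819 with 15 animals, so the gene sets differ. What sets LP4 sample 3 apart, and its part in the levels of the SP16 animals, was not tested.

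**Figure D2:**
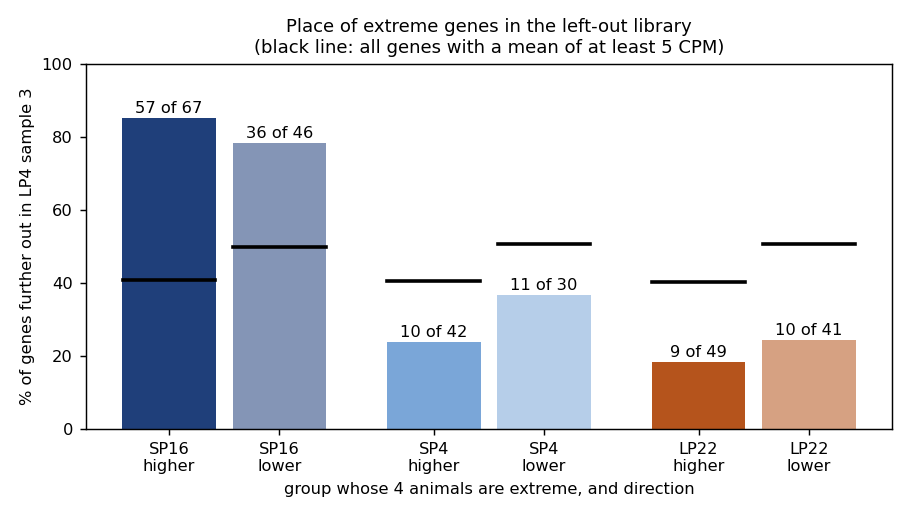
Bars give the percentage of genes, extreme in all 4 animals of SP16, SP4 or LP22, that were further out still in the left-out library of LP4 sample 3, with numbers of genes above them; black lines give the percentage of all genes averaging 5 CPM or more that lie beyond that group's range in the same direction. Only the SP16 bars, 85.1% and 78.3%, stand above their lines.

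The 2 higher members with the widest gap between SP16 and the other animals were ENSOARG00000020651 and ENSOARG00000010536. ENSOARG00000020651 measured 15.2, 20.7, 15.6 and 21.0 CPM in SP16 samples 1 to 4. It measured 10.6, 6.11, 5.07 and 10.7 CPM in SP4, then 5.25, 3.73 and 8.31 CPM in LP4 samples 1, 2 and 4, and 1.91, 2.22, 11.2 and 7.45 CPM in LP22. The nearest other animal was thus LP22 sample 3, while LP22 samples 1 and 2 were the lowest of all 15. Group means were 18.1 ± 3.14 CPM in SP16, 8.13 ± 2.96 in SP4 and 5.70 ± 4.47 in LP22 (SD, n = 4 each), and 5.76 ± 2.33 in LP4 (SD, n = 3). The SP16 mean was 2.75 times the mean of the 11 others. In LP4 sample 3 this gene was at 0.859 CPM (4 counts), on the side of the other animals and below all 11 of them.

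ENSOARG00000010536 measured 55.5, 54.9, 60.3 and 43.5 CPM in SP16 samples 1 to 4. In SP4 it was nearly constant, at 32.4, 33.0, 33.2 and 32.6 CPM, and in LP4 samples 1, 2 and 4 it measured 33.1, 21.6 and 32.8 CPM. In LP22 it was lower, at 23.4, 16.1, 26.9 and 19.3 CPM, so that SP4 lay between LP22 and SP16 without overlap. The log2 fold change of LP22 against SP4 was −0.59 (SE 0.16) in the fit over all 4 groups and did not pass at an adjusted p of 0.0603 (edgeR quasi-likelihood test, Benjamini-Hochberg). In LP4 sample 3 it stood at 56.9 CPM, within the SP16 range.

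The 2 lower members with the widest gap were ENSOARG00000013344 and ENSOARG00000011488. ENSOARG00000013344 measured 4.03, 3.85, 5.20 and 4.60 CPM in SP16, from 8 to 15 counts an animal. It measured 7.19, 11.4, 9.68 and 7.59 CPM in SP4, then 12.9, 7.05 and 15.4 CPM in LP4 samples 1, 2 and 4, and 12.4, 23.4, 12.6 and 13.1 CPM in LP22. All LP22 animals were above all SP4 animals, with a log2 fold change of 0.79 (SE 0.26) and an adjusted p of 0.13 (edgeR quasi-likelihood test), and LP4 overlapped SP4. In LP4 sample 3 it was at 23.0 CPM, on the side of the other animals.

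ENSOARG00000011488 was close to the limit of counting in SP16, with 5, 4, 1 and 2 counts in samples 1 to 4, or 2.24, 1.93, 0.347 and 1.02 CPM. SP4 animals had 6.29, 4.89, 3.69 and 3.12 CPM. LP4 samples 1, 2 and 4 had 29.5, 16.2 and 22.0 CPM, and LP22 animals had 43.9, 23.9, 3.40 and 18.8 CPM. Except for LP22 sample 3, which fell within the SP4 range, LP animals were thus well above SP4 animals. In the fit over all 4 groups the log2 fold change was 2.23 (SE 0.53, adjusted p = 0.0352) for LP4 against SP4 and 2.19 (SE 0.51, adjusted p = 0.0227) for LP22 against SP4, by edgeR's quasi-likelihood test. The LP4 call was lost when any single SP4 animal was left out, and with all 16 animals. Both left-out libraries lay at SP levels, with 3 counts (0.644 CPM) in LP4 sample 3, within the SP16 range, and 4 counts (3.30 CPM) in the first library of LP4 sample 2. Without the value of LP22 sample 3, the gene would have been left out of the members as parting SP from LP.

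**Figure D3:**
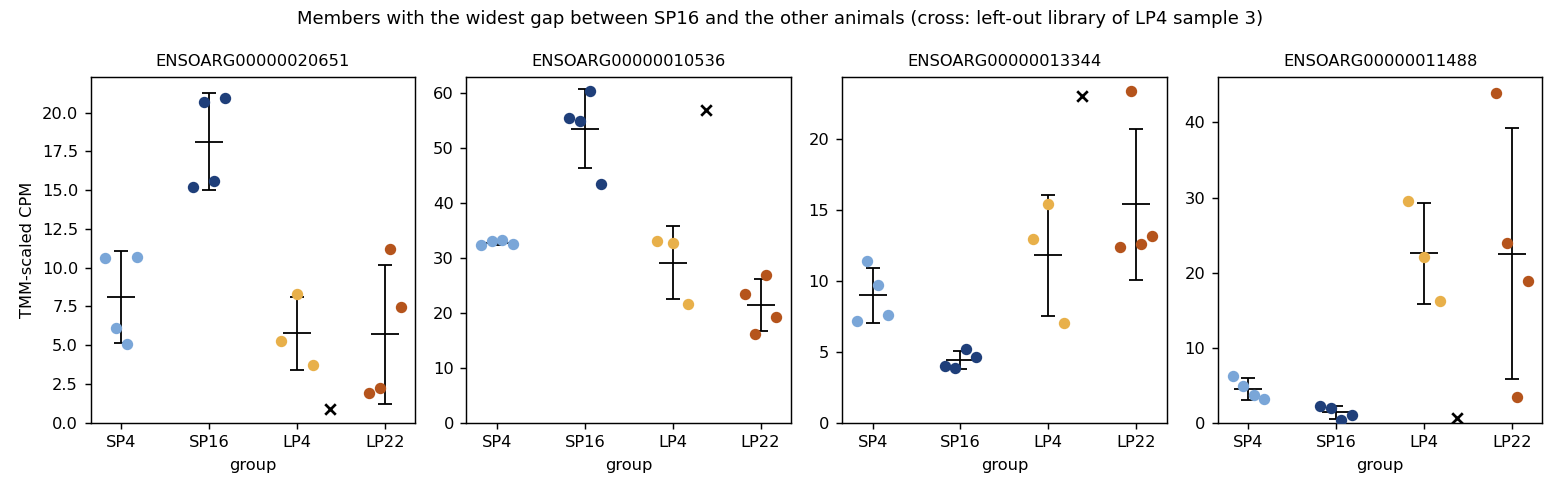
Points are TMM-scaled CPM of each animal on linear axes that start at 0, bars are the group mean and its SD (n = 4, and n = 3 in LP4), and the cross is the left-out library of LP4 sample 3. The 4 SP16 animals lie outside all other points in each panel, while the cross falls on the side of the others for ENSOARG00000020651 and ENSOARG00000013344 and among the SP16 values for ENSOARG00000010536 and ENSOARG00000011488.

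Across the 67 higher members the SP16 mean was 1.13 to 2.75 times the mean of the other 11 animals, with a median of 1.43. It was at least 2-fold for 4 of them and at least 1.5-fold for 25. Across the 46 lower members the ratio lay between 0.0866 and 0.866 (median 0.732), and 9 were at least 2-fold and 17 at least 1.5-fold lower. The ratio of 0.0866 belonged to ENSOARG00000011488 and is uncertain in size because of its few counts. Some other low ratios leaned on LP4 sample 2, but not all. The member with a ratio of 0.309 had 21.1 CPM there, the lowest of the 11 animals outside SP16. The member with a ratio of 0.349 had 394 CPM there, against 31.0 to 55.6 CPM in the rest of the animals outside SP16. The member with a ratio of 0.284 had 124 CPM there, against 10.8 to 36.9 CPM. That library had the lowest TMM factor of the 15 animals (0.636), and its 10 leading genes held 59.2% of counts. By these ratios most members were moderate shifts. The median coefficient of variation within SP16 was 8.68% for members and 15.4% for the 11998 genes, and the rule favours a narrow SP16 group. In the other groups members varied less than all genes, at 12.3% against 15.2% in SP4, 14.6% against 17.2% in LP4 and 14.2% against 16.0% in LP22. The rule favours a narrow spread there too, since SP16 had to clear all 11 animals, so these values are descriptions.

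The gaps were narrow. Between the SP16 animal nearest to the others and the nearest other animal, the median gap was 1.04-fold for higher and 1.03-fold for lower members, and 14 higher and 6 lower members had a gap of at least 1.1-fold. For 0 of the 113 members did the 95% Poisson intervals of these neighbouring animals stay clear of each other, so the place of single animals next to the gap is within counting error. Those intervals cover counting error alone. The closest higher member had 119.99 CPM in its nearest SP16 animal against 119.95 CPM in the nearest other, and the closest gene that missed had 72.09 against 72.11 CPM. For lower genes these pairs were 67.02 against 67.08 CPM and 6.139 against 6.136 CPM. A further 330 genes missed the higher set and 274 the lower set by the value of a single animal. At the limit of 5 CPM, the member with the lowest mean stood at 5.53 CPM and the next gene below the limit at 4.55 CPM.

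Members had moderate levels. Mean CPM ran from 5.53 to 409 in the higher and from 6.57 to 167 in the lower set. The median was 29.0 CPM (quartiles 14.7 and 64.8) over all members and 20.8 CPM (quartiles 10.8 and 44.7) over the 11998 genes. These values are not per length, so they do not rank genes by transcript number. The median member had a median count per animal of 60 in the higher and 80 in the lower set.

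SP4 was most often the group next to SP16. The nearest other animal belonged to SP4 for 37 of 67 higher members (55.2%) and for 25 of 46 lower members (54.3%), where SP4 holds 36.4% of the 11 animals. It belonged to LP22 for 22.4% and 21.7%, against the same 36.4% of the animals, and to LP4 for 22.4% and 23.9%, against 27.3%. By group means, SP4 was closest to SP16 for 44 of the higher and 24 of the lower members. The same share over all genes was not counted, so this closeness is not shown to be particular to members. Over all 13446 genes tested, SP16 differed from SP4 in 1, from LP4 in 240 and from LP22 in 434. These counts are at an adjusted p under 0.05 (edgeR quasi-likelihood test). The study, which also used edgeR, reported many more genes differing between SP4 and SP16. Its animals, filter and form of test may differ from those used here. The share left for SP4 was lowered by the rule itself, which removed genes that part all SP from all LP animals.

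SP4 sample 1 shows how far single libraries can matter here. In its first library, taken alone, 25 of the 67 higher members and 10 of the 46 lower members were in or past the SP16 range, while in its deeper repeat library these numbers were 4 and 2. Members were chosen on the sum, to which the repeat library gave 4119508 of 5850281 counts, so its low numbers follow largely from the choice. Used in place of the sum, the first library left 34 higher members, 31 of them among the 67, and 48 lower ones, 34 of them among the 46.

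Comparisons among SP4, LP4 and LP22 are contrasts that the rule did not use, but they are not free of it. The rule set SP16 against the highest or lowest of the same 11 animals, it removed genes that part SP from LP, and the fit over all 4 groups takes its spread in part from the SP16 animals. The members' counts are therefore set beside those of all genes as descriptions. Between LP22 and SP4, 8 of 113 members (7.08%) changed at an adjusted p under 0.05 in edgeR's quasi-likelihood test, where 2.8% of 13446 genes did. The 5 lower members among them were higher in LP22 than in SP4, with log2 fold changes from 0.65 to 2.19, and the 3 higher members were lower in LP22, with log2 fold changes from −0.60 to −0.41. A fit of the LP22 and SP4 animals alone gave 7 in place of 8. In each of the 8, the SP4 mean therefore lay between LP22 and SP16. Without any single animal of SP4 the 8 became 4, without LP22 sample 1 they became 3, without LP22 sample 2 they became 4, and with all 16 animals 1 was left. The share of all genes called was not counted in these alternative fits. At an unadjusted p under 0.05 the members numbered 27 (23.9%), where 14.9% of all genes passed. Yet the members' differences were no larger in size: the median absolute log2 fold change was 0.16 for members and 0.17 for all genes averaging 5 CPM or more. For LP4 against SP4 these medians were 0.12 and 0.18, and for LP22 against LP4 they were 0.14 and 0.15.

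Between LP4 and SP4, 1 member (0.885%) changed, ENSOARG00000011488, where 1.79% of all genes did, and 14 members (12.4%) had an unadjusted p under 0.05, where 14.3% of all genes did. Between LP22 and LP4, 0 members changed by edgeR's quasi-likelihood test and 0 by DESeq2, where 0.0297% of all genes changed by the former. There, 17 members (15%) had an unadjusted p under 0.05, where 8.71% of all genes did. Leaving out LP4 sample 1 gave 1 changed member, with the share of all genes not counted. The median log2 fold changes of the higher members were −0.09 for LP4 against SP4, −0.13 for LP22 against SP4 and −0.06 for LP22 against LP4. Those of the lower members were 0.08, 0.04 and 0.03, and those of all tested genes lay within 0.01 of 0.

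**Figure D4:**
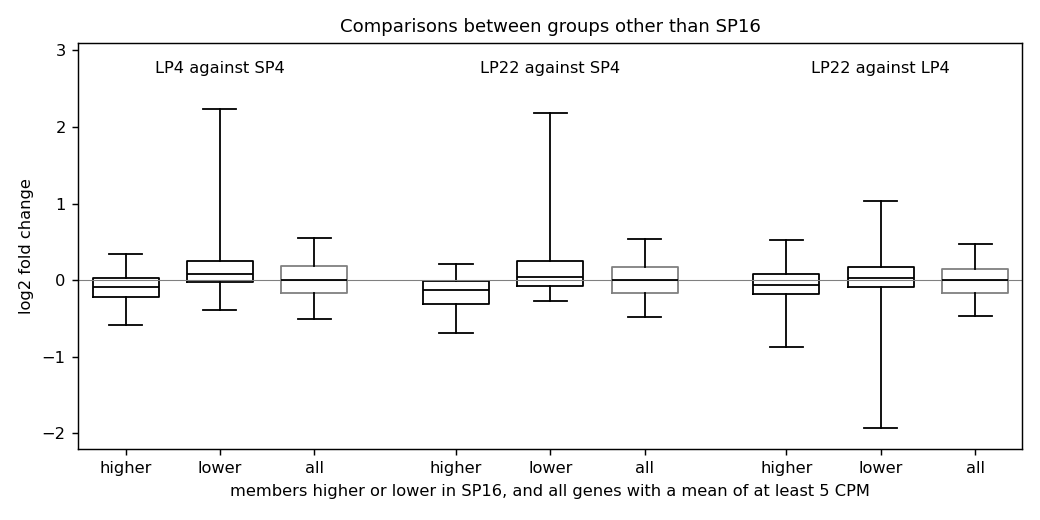
Boxes give the median and quartiles of the log2 fold change for the 67 higher and 46 lower members, with whiskers to the lowest and highest member, and for all genes averaging 5 CPM or more, with whiskers from the 5th to the 95th percentile. Medians of the members lie between −0.13 and 0.08 in these comparisons, which come from the fit over all 4 groups.

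For completeness, the comparisons that the rule used are given with their background, and nothing is read from them. Against SP4, 1 member passed an adjusted p under 0.05, and 0.00744% of all genes passed, which is the same single gene. Against LP4, 29 members passed and 1.78% of all genes did. Against LP22, 49 members passed and 3.23% of all genes did. With the replicate block the number against LP4 was 17, with the share of all genes not counted. For 3 members the SP16 minus SP4 difference differed from the LP22 minus LP4 difference at an adjusted p under 0.05 (edgeR quasi-likelihood test), where 0.0892% of all genes passed. The median log2 fold change of higher members was 0.44 against SP4, 0.49 against LP4 and 0.57 against LP22, and that of lower members was −0.45, −0.47 and −0.45.

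Within groups the members varied together only weakly. Over the 11 animals outside SP16, as deviations from their group means on the log2(CPM + 1) scale, the median Pearson correlation was 0.132 between pairs of higher members, 0.153 between pairs of lower members and −0.114 between a higher and a lower member. The median over all pairs of the 11998 genes was 0.00293. These pairs share the same 11 libraries, so the values are descriptions. In LP4 sample 2 the median difference from the mean of the 11 animals was −0.12 for higher and 0.12 for lower members. In LP4 samples 1 and 4 it was 0.08 and 0.05 for higher members, and −0.10 and −0.09 for lower members. Correlations without LP4 sample 2 were not computed, so its part in them was not tested. Within SP16, the animal nearest to the others was sample 1 for 23, sample 2 for 9, sample 3 for 15 and sample 4 for 20 of the higher members. For the lower members these numbers were 13, 12, 12 and 9. All SP16 animals had to clear the others, so these counts do not show whether a single animal decided membership. By the value of a single SP16 animal, 253 genes missed the higher set and 193 the lower set.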

How the data were processed

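Bulk RNA-seq libraries of ovine PT were analysed. The authors' pipeline named Bowtie for alignment, SAMtools, and HTSeq for counting over genes, and the submitters' processing notes name the build Oar_v3.1. For the tool versions, the annotation release and the strandedness of counting, nothing is given in the sources used here, so overlapping genes and near-identical copies cannot be told apart. The deposited values are raw counts for 25197 Ensembl gene IDs in 18 libraries. The 5 HTSeq summary lines stayed out of library sizes and tests. Over all libraries, 80.5% of reads fell in no counted feature, out of those in a gene, in no feature or ambiguous.

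Groups and sample numbers came from the sample labels. CPM used edgeR 4.0.16 with TMM factors in R 4.3.3. Tests were edgeR glmQLFit and glmQLFTest, two-sided, on genes kept by filterByExpr (minimum count 10, minimum total 15; 13446 genes, all 113 members among them), with all 4 groups of the 15 animals in a single fit and Benjamini-Hochberg adjustment over all genes. SE was derived from the F statistic. P-values set a group difference against the spread between labelled samples within groups. That spread was estimated from all 4 groups and shared in part across genes. Members named by ID were the 2 in each direction with the widest gap on log2(CPM + 1). The members and lists were chosen with earlier results of these data known. Scripts were tested on simulated data. DESeq2 1.42.0 was an alternative test. Figures used matplotlib 3.10.9. Lists of named marker and pathway genes were not used, since IDs were not paired with names.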

Additional observations from a re-analysis of the deposited data

Results flagged for a closer look

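In LP22 sample 2, ENSOARG00000013344 stood at 23.4 CPM (42 counts), far above the other LP22 animals at 12.4 to 13.1 CPM. It was the 1 value found among 12 groups of 4 animals examined for the 4 members given by ID, and chance gives about 1 in 20 groups.

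For 3 members the SP16 minus SP4 difference differed from the LP22 minus LP4 difference (edgeR quasi-likelihood interaction, adjusted p under 0.05), a contrast that the SP16 values used by the rule enter.

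The left-out library of LP4 sample 3, which entered group comparisons only where all 16 animals were used, held 57 of the 67 higher members above and 36 of the 46 lower members below every SP16 animal. Its shares were above those over all genes, 40.8% and 50%.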

How the results depend on the processing

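The number of members depended on which libraries entered and on the margin asked for. With all 16 animals it was 9 higher and 16 lower, with the first library of SP4 sample 1 alone it was 34 higher, and with no LP4 animal, a setting added after the data were seen, it was 95 lower (39 of the 46 among them) and 99 higher. A 1.1-fold margin left 14 higher and 6 lower, a mean of at least 20 CPM left 42 higher, and CPM without scaling factors, also added later, gave 15 lower (9 of the 46) and 65 higher. RLE scaling gave 63 higher and 53 lower, and upper-quartile scaling 78 and 40. Leaving out each animal in turn gave 59 to 113 higher and 53 to 123 lower members, the highest without SP16 sample 1. Any SP16 animal left out gave at least 110 higher and 106 lower, as 3 animals clear the others more readily than 4, and the lower members also passed 1.5 times 46 without SP4 sample 4 (77), LP4 sample 1 (75) or LP22 sample 3 (72).

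Members called with one animal left out numbered 1 to 3 for SP16 against SP4 (3 without LP4 sample 2, 2 without LP22 sample 4 or SP16 sample 3), 12 to 31 for SP16 against LP4 (12 without LP4 sample 2 or without SP16 sample 2, 18 without any other SP16 sample), 33 to 59 for SP16 against LP22, 0 to 1 for LP4 against SP4, 3 to 9 for LP22 against SP4 and 0 to 1 for LP22 against LP4. With all 16 animals they were 0, 1, 6, 0, 1 and 0 in that order. For SP16 against SP4, no filter on low counts gave 4, the fit of only the 2 groups compared gave 4 and DESeq2 gave 8, in place of 1. For SP16 against LP4, the fit of only these groups gave 15 and the replicate block 17, in place of 29. The share of all genes called was not counted in these settings, so a change in the members cannot be told from a general change in calls. The cause of these moves was not tested. The labels number samples 1 to 4 in every group, but same-numbered samples did not deviate together (mean correlation −0.0126 over 21 pairs), so the numbers were not taken to pair animals; the block moved no other count by over 1.5 times. DESeq2 gave no adjusted p in 42 of the member tests over the 6 comparisons. RLE scaling left the place of members in LP4 sample 3 at 57 and 36. The direction of the 4 members given by ID held under RLE scaling and without each animal in turn. The rule had set all their SP16 values on one side of the others, so this direction could hardly reverse and is no check. Depth limits single values most at the lowest levels, where members had as few as 1 count in an animal.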
